A study of Mus musculus with 12 samples.

Results

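The secreted Wnt antagonists were taken as 10 genes, Dkk1, Dkk2, Dkk3, Wif1, Sfrp1, Sfrp2, Sfrp4, Sfrp5, Frzb and Notum, found by symbol among the 78298 genes of the deposited count table. Of these 10 genes, 8 passed the filter on low counts that left 22190 genes for testing, and Dkk1 and Sfrp5 did not. The genes were chosen with the tumour and normal values of these libraries known, so their tumour-normal differences are given as a description and carry no test.

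RNA was sequenced from 12 mouse libraries in 4 groups of 3, which cross dissected tissue (macroscopic LLC tumours or the normal lung beside them) with treatment (VEH or HDM). HDM stands for house dust mite in the series title, whereas VEH and LLC are used as the labels give them. Strain, age, dose and schedule were not given in the sources used here, and all 12 libraries carry the same batch label. The labels number the replicates without saying that they came from separate animals, so a p-value here measures only the spread between these libraries, which may be technical.

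Wnt proteins are lipid-modified ligands that bind Frizzled receptors together with the co-receptors LRP5 and LRP6 and stabilise beta-catenin. Secreted antagonists limit this signal outside the cell. The Dickkopf proteins DKK1 and DKK2 bind the co-receptors, WIF1 and the secreted Frizzled-related proteins bind the ligand itself, and NOTUM removes the lipid that the ligand needs. In the lung the pathway is known for its part in branching during development and in the upkeep of alveolar cells in the adult.

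Among the 10 genes, Dkk2 was the abundant transcript of tumours and was low in normal lung outside 1 library. Frzb was the other gene higher in tumours, at a far lower level. Dkk3, Wif1, Sfrp2 and Notum were lower in tumours than in normal lung, and Sfrp1 was lower with a wide spread. By edgeR's quasi-likelihood F-test none of the 8 tested genes was called between HDM and VEH, in normal lung or in tumours. The Wald test of DESeq2 called Wif1 lower under HDM in tumours, where it called 1311 of all 22190 tested genes.

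Total counts ran from 20608682 to 32765364 per library. The labelled tissues were checked against marker lists, each summed in CPM (read counts relative to the TMM-scaled size of the library). The 10 alveolar epithelial markers summed to between 18186 and 45345 CPM in normal lung and to between 124 and 9152 CPM in tumours. The 5 proliferation markers summed to between 25 and 142 CPM in normal lung and to between 457 and 929.6 CPM in tumours. A few libraries stood apart in ways that touch the antagonists. Normal VEH replicate 2 had the 142 CPM of proliferation markers, against at most 37.6 CPM in the other normal libraries, and the highest mesothelial sum, 1333 CPM. Tumour VEH replicate 2 had 20107 CPM of airway epithelial markers, against 3.88 to 6154 CPM in the other tumours. Tumour HDM replicate 3 had the lowest alveolar and airway sums of all libraries, 124 and 3.88 CPM. In bulk RNA, fewer cells of a type and less RNA per cell cannot be told apart.

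Upstream sequence is shown for Dkk2, Wif1 and Sfrp2, the 3 genes whose levels are followed library by library against cell markers. The RefSeq table of promoter windows, each 300 bases long (250 before and 50 after the start), held 6 of the 10 genes; Dkk3, Sfrp1, Sfrp4 and Notum had no entry. The windows were placed on GRCm39 by exact match. Only the stretch before both the RefSeq start and the start of the canonical GENCODE transcript is printed, on the strand of the gene, 5′ to 3′, with each CpG dinucleotide in capitals. A further Dkk2 transcript starts upstream of the printed stretch, which holds none of its exons. The Dkk2 stretch is chr3:131790825-131791042 (plus strand), the Wif1 stretch is chr10:120869659-120869864 (plus strand) and the Sfrp2 stretch is chr3:83673378-83673480 (plus strand).
Dkk2: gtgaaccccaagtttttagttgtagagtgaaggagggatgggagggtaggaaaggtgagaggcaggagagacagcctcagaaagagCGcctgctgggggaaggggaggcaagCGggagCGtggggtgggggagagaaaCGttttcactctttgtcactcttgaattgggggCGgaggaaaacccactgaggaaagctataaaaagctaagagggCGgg
Wif1: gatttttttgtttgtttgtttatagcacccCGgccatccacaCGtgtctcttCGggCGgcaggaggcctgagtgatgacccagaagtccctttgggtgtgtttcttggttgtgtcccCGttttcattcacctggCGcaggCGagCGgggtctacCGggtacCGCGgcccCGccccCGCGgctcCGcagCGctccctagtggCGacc
Sfrp2: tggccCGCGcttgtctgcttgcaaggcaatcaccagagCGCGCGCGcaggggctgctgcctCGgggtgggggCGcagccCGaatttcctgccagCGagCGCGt

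The printed Dkk2 stretch of 218 bases held 6 CpG dinucleotides, the Wif1 stretch of 206 bases held 17 and the Sfrp2 stretch of 103 bases held 12. Over the whole 300-base window the counts were 11 for Dkk2, 25 for Wif1 and 22 for Sfrp2, against a median of 7 in all 32851 windows of the table. Of all windows, 58.6% held fewer CpG than that of Dkk2, 81.6% fewer than that of Wif1 and 76.9% fewer than that of Sfrp2. The letters TATAAA, searched on both strands, occurred in 13.6% of all windows. They lay 32 bases before the RefSeq start of Dkk2 on its own strand, on the opposite strand only in the Wif1 window, and not in the Sfrp2 window. CTTTGAA or CTTTGAT, the core letters of the motif bound by TCF and LEF factors, occurred on either strand in 8.65% of all windows and in none of these 3. A match is a description of the letters and was not measured as a bound site.

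Dkk2 encodes a Dickkopf protein that binds LRP5 and LRP6 (gene on GRCm39 chromosome 3, 131790336 to 131886065, plus strand). Taking replicates 1, 2 and 3 in turn, its level in normal lung was 5.42, 104 and 4.29 CPM under VEH and 8.85, 1.13 and 6.48 CPM under HDM. The tumours had 755, 296 and 831 CPM under VEH and 672, 611 and 891 CPM under HDM. Every tumour was above every normal library, and normal VEH replicate 2 stood far above the other 5 normal libraries. That library also held the high proliferation sum given above, and at 115 CPM its Myc level exceeded the 6.24 to 25.8 CPM of the other normal libraries. Among tumours, HDM replicate 3 and VEH replicate 3 had the highest proliferation sums, 929.6 and 674 CPM, and the highest Dkk2. VEH replicate 2, the lowest tumour for Dkk2, had a sum of 624 CPM, above the 457 to 598 CPM of the remaining tumours. The part of proliferation or Myc in the Dkk2 levels was not tested.

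The Dkk2 group means were 38 ± 57.5 CPM in normal VEH, 5.49 ± 3.95 in normal HDM, 627 ± 289 in tumour VEH and 725 ± 147 in tumour HDM (SD, n = 3 each). The fitted tumour-normal difference was 4.04 ± 1.20 log2 units under VEH and 7.04 ± 1.39 under HDM (estimate ± SE). Without normal VEH replicate 2 the VEH value was 7.02, beside 7.04 under HDM. Tumour VEH replicate 2, the lowest tumour for Dkk2, was also the tumour with the most airway epithelial RNA. Per kilobase of transcript, Dkk2 stood above 97.1% to 99.3% of all tested genes in the 6 tumours. In normal lung it stood above 91% of tested genes in VEH replicate 2 and above 14.9% to 44.5% in the other 5 libraries.

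Dkk3 is the divergent Dickkopf member, for which binding to LRP5 and LRP6 is not established (chromosome 7, 111712904 to 111758760, minus strand). Normal lung had 137, 49.7 and 53.2 CPM under VEH and 139, 71.5 and 105 CPM under HDM. In tumours the level was 3.65, 7.88 and 6 CPM under VEH and 5.26, 3.21 and 1.82 CPM under HDM. The tumour and normal libraries did not overlap under either treatment, and all 12 values fell into a high normal range and a low tumour range.
The means were 79.9 ± 49.3 CPM in normal VEH, 105 ± 33.5 in normal HDM, 5.84 ± 2.12 in tumour VEH and 3.43 ± 1.73 in tumour HDM (SD, n = 3 each). The fitted difference was −3.77 ± 0.54 log2 units under VEH and −4.94 ± 0.57 under HDM, and leaving out any 1 library kept the VEH value between −4.05 and −3.13. Per kilobase, Dkk3 was above Dkk2 in 5 of the 6 normal libraries and below it in normal VEH replicate 2 and in all 6 tumours. Dkk1, a Dickkopf antagonist of the co-receptors (chromosome 19, 30523263 to 30527065, minus strand), had 0 counts in 11 libraries and 4 counts in normal HDM replicate 3. A library with 0 counts allows a level of up to 3 counts, which was at most 0.138 CPM in these libraries, and this limit covers counting error only.

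**Figure D1:**
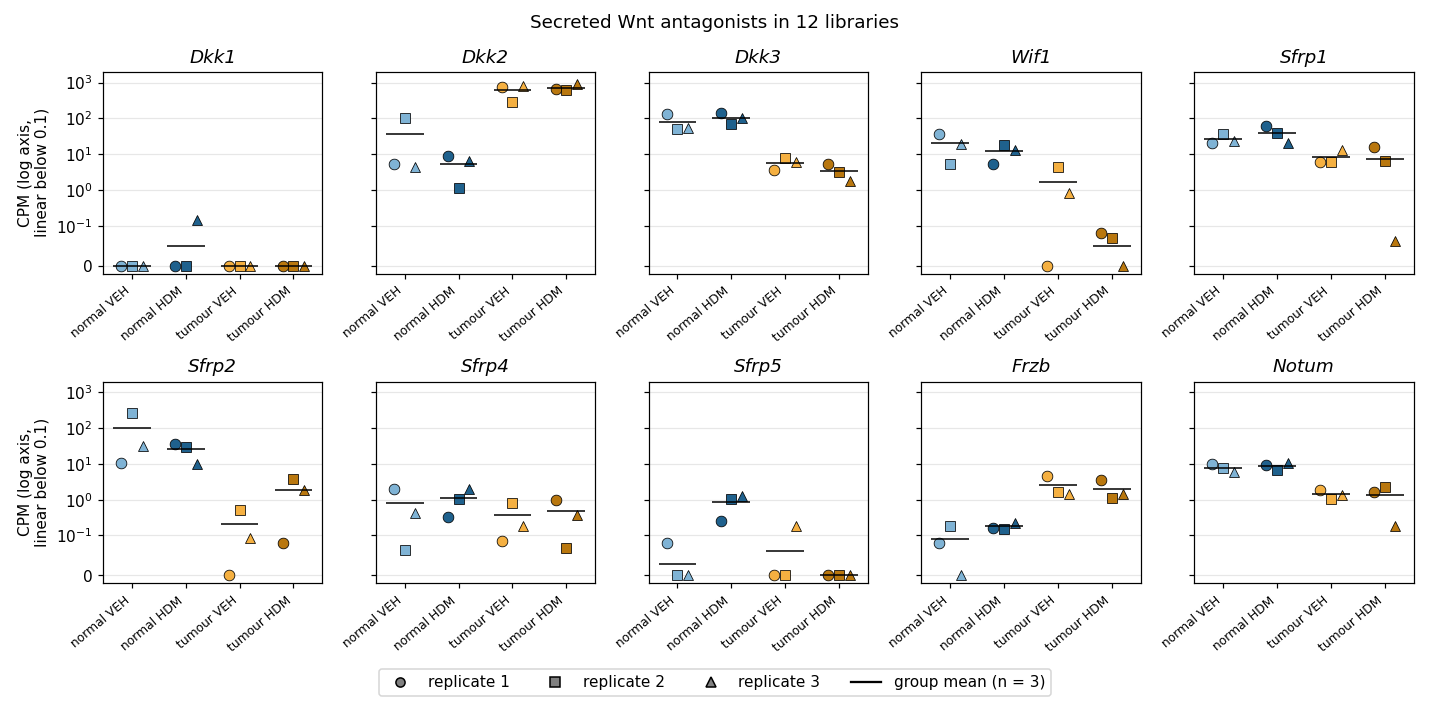
Each panel plots 1 antagonist in CPM on a log axis that is linear below 0.1, with 1 point per library and a bar at each group mean, for both tissues under VEH and HDM (n = 3 each). Dkk2 lies at 296 to 891 CPM in tumours, and Dkk3 lies at 49.7 CPM or more in normal lung and 7.88 CPM or less in tumours.

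Wif1 binds Wnt ligands through a domain of its own type (chromosome 10, 120869865 to 120936555, plus strand). Wif1 in normal lung was at 37.7, 5.35 and 19 CPM under VEH and at 5.41, 17.7 and 12.7 CPM under HDM. The tumour levels were 0, 4.31 and 0.83 CPM under VEH and 0.0821, 0.0683 and 0 CPM under HDM, the last 3 values resting on 2, 2 and 0 counts. The tumour and normal libraries did not overlap, although tumour VEH replicate 2 came close to the lowest normal library.

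Wif1 averaged 20.7 ± 16.2 CPM in normal VEH and 11.9 ± 6.17 in normal HDM, against 1.71 ± 2.29 in tumour VEH and 0.0501 ± 0.044 in tumour HDM (SD, n = 3 each). The fitted difference under VEH was −3.57 ± 1.23 log2 units, and it was −5.64 without tumour VEH replicate 2. Under HDM, where the tumours held 4 counts in all against 946 in normal lung, the ratio of pooled levels was 262-fold in favour of normal lung (exact 95% interval 102 to 965, counting error only). The fitted difference under HDM, which also takes in the spread between libraries, was −7.85 ± 1.67 log2 units (95% interval −11.54 to −4.15). Wif1 ran broadly with the summed level of the 7 airway epithelial markers. The normal libraries with the lowest airway sums, 24714 CPM in HDM replicate 1 and 26942 CPM in VEH replicate 2, had the lowest normal Wif1, and the highest sum, 112897 CPM in VEH replicate 1, went with the highest Wif1. Among tumours the order of the 2 highest was also the same, with VEH replicate 2 above VEH replicate 3. The part of airway epithelium in the Wif1 levels was not tested.

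Sfrp1 encodes a secreted Frizzled-related protein, which carries a Frizzled-like ligand-binding domain (chromosome 8, 23901263 to 23939648, plus strand). Its level in normal lung was 20.5, 37.9 and 23.4 CPM under VEH and 59.8, 39.4 and 20 CPM under HDM. In tumours it was 6.12, 6.17 and 13 CPM under VEH and 15.5, 6.46 and 0.0607 CPM under HDM. The ranges did not overlap, but tumour HDM replicate 3, with 2 counts, lay far below the other 5 tumours. The means were 27.3 ± 9.32, 39.7 ± 19.9, 8.43 ± 3.96 and 7.35 ± 7.77 CPM in normal lung under VEH and HDM and in tumours under VEH and HDM (SD, n = 3 each), and the last was 11 CPM without that library. The fitted difference was −1.69 ± 1.05 log2 units under VEH and −2.44 ± 1.08 under HDM.

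Sfrp2 belongs to the same family and is a known product of mesenchymal cells (chromosome 3, 83673481 to 83681623, plus strand). In normal lung it was at 10.7, 264 and 31.8 CPM under VEH and at 36.4, 29 and 10.2 CPM under HDM. Tumours held 0, 0.521 and 0.0923 CPM under VEH and 0.0821, 3.76 and 1.82 CPM under HDM. No tumour reached the lowest normal library, and normal VEH replicate 2 was again the library that stood apart.

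The Sfrp2 mean of normal VEH was 102 ± 141 CPM, and 21.3 CPM without replicate 2, beside 25.2 ± 13.5 CPM in normal HDM (SD, n = 3). In tumours the means were 0.204 ± 0.278 CPM under VEH and 1.89 ± 1.84 under HDM (SD, n = 3 each). The fitted difference was −8.86 ± 1.75 log2 units under VEH, −6.60 without normal VEH replicate 2 and −11.02 without tumour VEH replicate 2, and −3.72 ± 1.33 under HDM. The VEH tumours held 0, 14 and 2 Sfrp2 counts, so the size of the VEH difference rests on values near the floor. The mesothelial list of 7 genes was highest in the same normal library, at 1333 CPM against 291 to 811 CPM in the other 5, and its gene Wt1, a transcription factor of mesothelium, was at 37.2 CPM there against 0 to 9.26 CPM. The fibroblast list of 8 genes summed to 3134 CPM there and to 862 to 2342 CPM in the other normal libraries. However, its mean log2 level there, 7.10, was below the 7.51 of normal VEH replicate 1. The tumours, low in Sfrp2, summed to 5443 to 13916 CPM. Their mean log2 levels of this list, 6.91 to 7.73, overlapped the 6 to 7.51 of normal lung. Among tumours the mesothelial sum was highest in VEH replicate 2, at 201 CPM with Sfrp2 at 0.521 CPM, and was 92.2 CPM in HDM replicate 2, which had the highest tumour Sfrp2. Their part in the Sfrp2 levels was not tested. The lncRNA Gm26771 overlaps Sfrp2 on the opposite strand and held 4221 counts in all beside 11525 for Sfrp2. Whether the counting used the strand is not given in the sources used here, so reads of the 2 genes may be mixed.

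Sfrp4, another Frizzled-related protein (chromosome 13, 19807274 to 19817164, plus strand), was scarce everywhere. Normal lung was at 1.97, 0.0629 and 0.421 CPM under VEH and at 0.328, 1.06 and 1.99 CPM under HDM. In tumours it was at 0.085, 0.818 and 0.185 CPM under VEH and at 0.986, 0.0683 and 0.364 CPM under HDM. Tumour and normal libraries overlapped under both treatments, and the VEH difference of −1.14 ± 1.25 log2 units turned to 0.63 without normal VEH replicate 1. Sfrp5, the remaining family member measured (chromosome 19, 42186410 to 42190691, minus strand), had 6, 28 and 34 counts in normal HDM. It had 2, 0 and 0 counts in normal VEH, 0, 0 and 4 in tumour VEH and 0 in each tumour HDM library. Against the floor of 3 counts per library, tumour HDM was at least 8.07-fold lower than the normal HDM mean, 0.852 ± 0.534 CPM (SD, n = 3). That bound leaves out the spread of the normal HDM libraries, which ran from 0.246 to 1.25 CPM.

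Frzb, also called Sfrp3, is a ligand-binding antagonist known from cartilage (chromosome 2, 80242313 to 80278304, minus strand). In normal lung it was at 0.0821, 0.189 and 0 CPM under VEH and at 0.164, 0.151 and 0.221 CPM under HDM, with no more than 6 counts in any library. The 6 tumours were at 4.67, 1.64 and 1.48 CPM under VEH and at 3.61, 1.09 and 1.4 CPM under HDM. Every tumour was above every normal library. The means were 2.6 ± 1.8 CPM in tumour VEH and 2.03 ± 1.38 in tumour HDM, against 0.0903 ± 0.0947 and 0.179 ± 0.0372 in the normal groups (SD, n = 3 each), and the fitted differences were 4.70 ± 0.91 and 3.47 ± 0.85 log2 units. Of the 6 cartilage marker genes, Acan was at 0 in all 12 libraries and Col2a1 was at most 0.246 CPM. Sox9, which other tissues also express, was at 28.6 to 62.9 CPM in tumours and 0.246 to 5.54 CPM in normal lung. The whole list summed to 24.4 to 105 CPM in normal lung and 36 to 84.2 CPM in tumours. Most of the normal sum thus came from its other members, Comp, Chad and Matn1, so the list did not follow Frzb.

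Notum encodes a secreted carboxylesterase that removes the palmitoleate of Wnt ligands (chromosome 11, 120541446 to 120552019, minus strand). Normal lung had Notum at 9.69, 7.58 and 5.85 CPM under VEH and at 9.13, 6.91 and 10.9 CPM under HDM. Tumours had it at 1.87, 1.04 and 1.38 CPM under VEH and at 1.64, 2.25 and 0.182 CPM under HDM. The groups did not overlap, and the normal libraries were closer together than for any other antagonist above 1 CPM. The means were 7.71 ± 1.92 and 8.98 ± 2 CPM in normal lung and 1.43 ± 0.416 and 1.36 ± 1.06 CPM in tumours (VEH and HDM, SD, n = 3 each), and the fitted differences were −2.43 ± 0.66 and −2.73 ± 0.67 log2 units. Notumos and Myadml2os, lncRNAs on the opposite strand, held 388 and 385 counts beside 1532 for Notum, so its level shares the uncertainty named for Sfrp2.

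Counted over the 8 tested genes, 2 were called higher and 4 lower in tumours under each treatment, where 38.9% of all tested genes were called under VEH (18.2% higher and 20.6% lower) and 51.9% under HDM (23% higher and 28.9% lower). These counts describe genes chosen on the same contrast, and nothing is read from them. Under VEH the number called was 3 without tumour VEH replicate 3. Libraries of the compared tissues did not overlap for 7 of the 8 genes under each treatment, as for 52.4% of all tested genes under VEH and 63.1% under HDM. The median difference over the 8 genes was −2.06 log2 units under VEH and −2.58 under HDM, beside −0.11 and −0.078 over all tested genes.

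Since transcript lengths differ, the antagonists were compared with one another per kilobase. Summed over the 10 genes, the level was 99.7 ± 70.3 CPM per kilobase in normal VEH, 63 ± 15.2 in normal HDM, 175 ± 77.4 in tumour VEH and 200.5 ± 37.5 in tumour HDM (SD, n = 3 each). Dkk2 made up 92% to 99.2% of this sum in the 6 tumours. In normal lung its share was 15.7% in VEH replicate 2 and 0.555% to 3.27% in the others. Without Dkk2 the sum was 1.99 to 7.22 CPM per kilobase in tumours and 46.3 to 151 in normal lung, so the 2 tissues did not overlap in the other 9 genes together. Dkk3 led in 5 of the 6 normal libraries, with 33.3% to 58.7% of the sum, and Sfrp2 led in normal VEH replicate 2 with 68.2%.

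**Figure D2:**
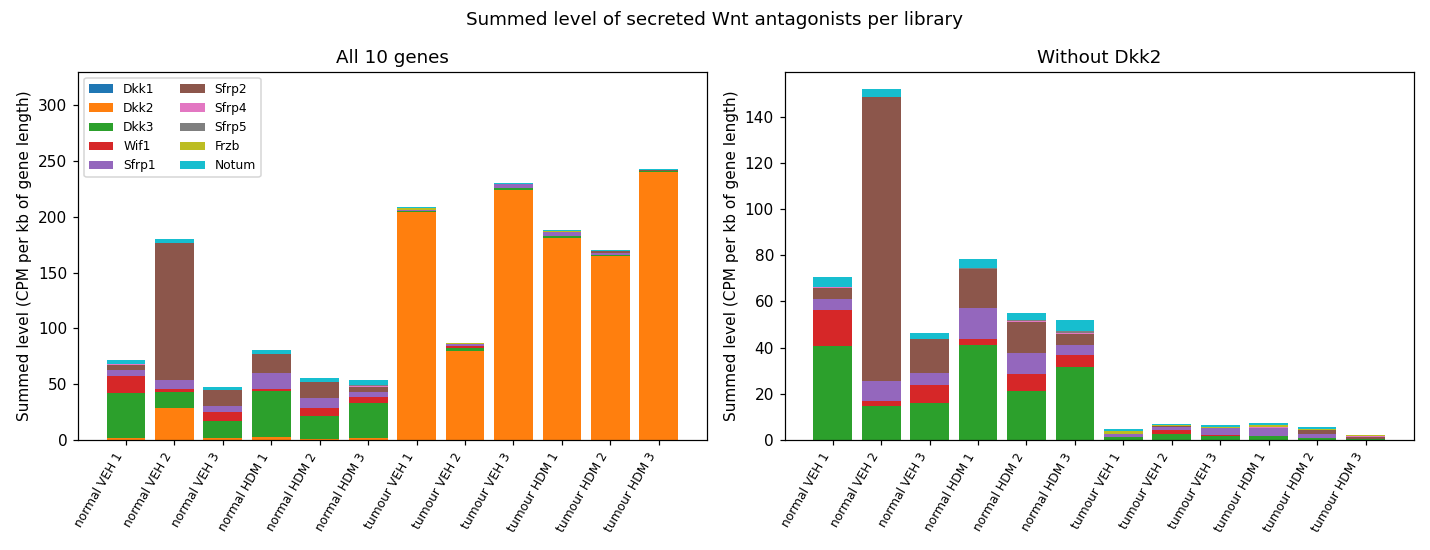
Stacked bars give the level of each antagonist in CPM per kilobase in each of the 12 libraries, with all 10 genes on the left and without Dkk2 on the right. Dkk2 fills 92% or more of every tumour bar, while normal bars are made mainly of Dkk3, Sfrp2, Wif1 and Sfrp1.

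Library names carry a prefix that joins 1 normal and 1 tumour library, which gave 6 pairs. For 2 of the prefixes the joined libraries have different treatment labels (tumour HDM replicate 2 is joined to normal VEH replicate 2, and tumour VEH replicate 3 to normal HDM replicate 3), so the pairs are a description only. Dkk2 was higher in the tumour in 6 of 6 pairs, by 2.55 to 9.12 log2 units, and Frzb in 6 of 6, by 2.14 to 4.91. Dkk3, Wif1, Sfrp1, Sfrp2 and Notum were lower in the tumour in all 6 pairs, with median differences of −4.02, −5.70, −1.82, −6.02 and −2.37 log2 units. Sfrp4 was higher in 3 of the 6 pairs. The lowest Dkk2 difference belonged to the pair of normal VEH replicate 2, whose own Dkk2 was high.

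**Figure D3:**
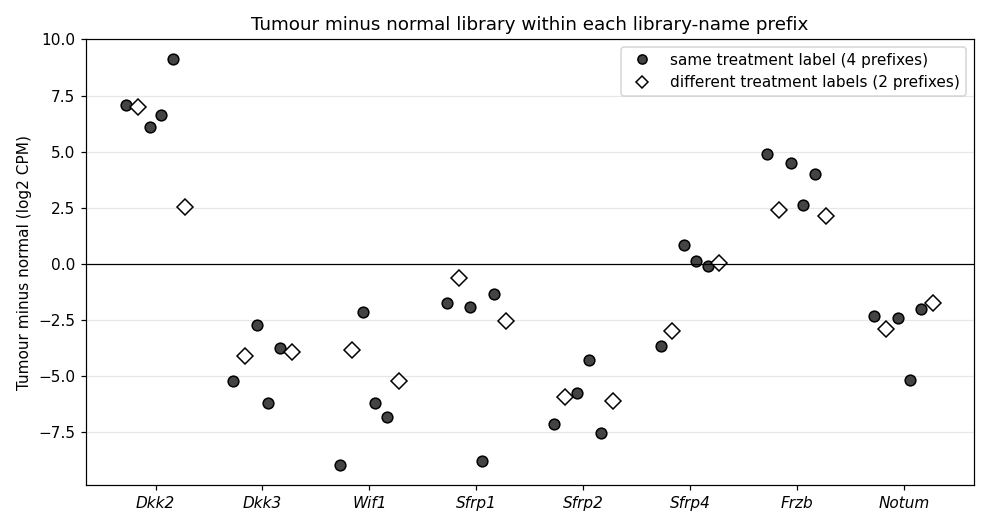
Points give the tumour minus normal difference in log2 CPM for each tested antagonist in each of the 6 prefix pairs, with a line at 0 and open diamonds for the 2 prefixes of differing treatment labels. Dkk2 and Frzb lie above 0 in 6 of 6 pairs, 5 genes lie below 0 in all 6, and Sfrp4 lies on both sides.

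The treatment comparison asks whether HDM shifted the antagonists within a tissue, and it was not the contrast on which they were chosen. None of the 8 tested genes was called between HDM and VEH in normal lung, where 0% of all tested genes were called by edgeR's quasi-likelihood F-test. At an unadjusted p below 0.05 the count was 1 of the 8, Dkk2, beside 5.54% of all tested genes. HDM and VEH libraries overlapped for all 8, whereas they did not overlap for 10.3% of tested genes. Dkk2 differed by −2.80 ± 1.15 log2 units (edgeR quasi-likelihood F-test, Benjamini-Hochberg adjusted p = 0.887, and 0.33 to 1 over the alternatives). Its libraries overlapped, with 4.29 to 104 CPM under VEH and 1.13 to 8.85 CPM under HDM, and the value was 0.18 without normal VEH replicate 2. Sfrp2 differed by −2.02 ± 1.21 log2 units (edgeR quasi-likelihood F-test, adjusted p = 0.904) and by 0.25 without that library. The other 6 genes had estimates from −0.79 for Wif1 to 0.88 for Frzb. Sfrp5, which was too scarce to be tested, had more counts in each of the 3 HDM libraries than in any VEH library (6 to 34 against 0 to 2).

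In tumours none of the 8 genes was called by the edgeR test either, where 0.0946% of all tested genes were called. The unadjusted p was below 0.05 for 1 of the 8, Wif1, beside 16.7% of all tested genes. HDM and VEH libraries overlapped for all 8, and did not overlap for 22% of tested genes. Dkk2 differed by 0.21 log2 units with a 95% interval of −2.15 to 2.56 (edgeR quasi-likelihood F-test, adjusted p = 0.948), an interval that leaves room for a change of several-fold in either direction. Wif1 differed by −5.06 ± 1.61 log2 units (edgeR quasi-likelihood F-test, adjusted p = 0.203), and by −3 without tumour VEH replicate 2. The Wald test of DESeq2 called Wif1 (adjusted p = 0.00861), but it called 1311 of the 22190 tested genes there, against 21 by edgeR. Over all alternatives tried the adjusted p of Wif1 ran from 0.00861 to 0.717. Its tumour HDM values rest on 0 to 2 counts per library. Sfrp2 differed by 3.11 ± 1.58 log2 units (edgeR quasi-likelihood F-test, adjusted p = 0.346), and Dkk3 by −0.78 ± 0.50 (adjusted p = 0.455).

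The difference between the tumour-normal contrasts under HDM and under VEH was tested as an interaction, in which 0% of all tested genes and none of the 8 antagonists were called by edgeR's quasi-likelihood F-test. At an unadjusted p below 0.05 the count was 1 of the 8, Sfrp2, beside 9.39% of all tested genes. The interaction was 3 ± 1.55 log2 units for Dkk2 (edgeR quasi-likelihood F-test, adjusted p = 0.55) and 5.14 ± 1.99 for Sfrp2 (adjusted p = 0.512, and 0.265 to 0.841 over the alternatives). For Dkk2 it was −0.31 without both VEH libraries numbered 2. A difference between the tumour-normal contrasts of the 2 treatments was thus not shown for any antagonist.

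Genes of the rest of the pathway were counted from 7 lists of 77 genes, 67 of which were tested. These lists too were drawn up with earlier results of these data known. Their tumour-normal calls and p-values, here and below, are therefore given as a description. Under VEH, 8 were higher and 25 lower in tumours by the edgeR quasi-likelihood F-test at an adjusted p below 0.05. That is 33 of 67, beside 38.9% of all tested genes (18.2% higher and 20.6% lower). Under HDM, 9 were higher and 35 lower, which is 44 of 67 beside 51.9% (23% higher and 28.9% lower). The contrasts under VEH and HDM shared 30 called genes, 6 higher and 24 lower in both. By the same test no list gene was called between HDM and VEH in either tissue or in the interaction. The Wald test of DESeq2 called 1, Porcn, lower under HDM in tumours (−2.20 ± 0.66 log2 units, adjusted p = 0.0223), named here after its value was seen. That test called 1311 of the 22190 tested genes in the same comparison.

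Of the 12 tested ligands, 1 rose and 6 fell in tumours under VEH, and 1 rose and 9 fell under HDM. Over all tested genes, 38.9% were called under VEH (18.2% higher and 20.6% lower) and 51.9% under HDM (23% higher and 28.9% lower). Wnt7b, a ligand of lung epithelium, rose from 15.9 ± 6.06 to 119 ± 23.1 CPM under VEH (SD, n = 3 each; 2.90 ± 0.41 log2 units, edgeR quasi-likelihood F-test, adjusted p = 0.00079) and by 3.27 ± 0.41 log2 units under HDM (adjusted p = 0.00024). Wnt2, a ligand of lung mesenchyme, fell, with −4.35 ± 0.85 log2 units under VEH (edgeR quasi-likelihood F-test, adjusted p = 0.00327) and −6.98 ± 1.02 under HDM (adjusted p = 0.000432). Its tumour means were 0.335 CPM under VEH and 0.0501 CPM under HDM, so the size of the HDM difference rests on values near the floor. Of 2 tested genes of ligand secretion, Wls, the carrier of Wnt proteins to the surface, rose by 1.48 ± 0.23 and 1.66 ± 0.23 log2 units under VEH and HDM. Porcn, the enzyme that adds the lipid NOTUM removes, fell, with −2.32 and −4.10 log2 units, and its VEH call was lost without normal VEH replicate 1, tumour VEH replicate 1 or tumour VEH replicate 3.

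Of the 17 tested receptors and co-receptors, 1 rose and 9 fell under VEH, and 1 rose and 10 fell under HDM. Beside these stand 38.9% (18.2% higher and 20.6% lower) and 51.9% (23% higher and 28.9% lower) of all tested genes called. The list has 8 called Frizzled receptors, Fzd1 to Fzd8, all lower in tumours under both treatments. Fzd4 fell, with −2.82 log2 units under VEH and −3.72 under HDM (edgeR quasi-likelihood F-test, adjusted p = 0.000441 and 8.98e-05), and Fzd7 fell, with −1.69 and −2.58. The co-receptors bound by Dkk2 were not called: Lrp5 was at 108 ± 9.99 CPM in normal VEH and 105 ± 9.99 in tumour VEH, and Lrp6 at 115 ± 17.2 and 88.9 ± 10.6 (SD, n = 3 each). Of 9 tested genes of the R-spondin axis, which amplifies Wnt signals, 4 fell and none rose under each treatment. That number is near the shares of all tested genes called in both directions, 38.9% and 51.9%. The shares called lower were 20.6% under VEH and 28.9% under HDM. Rspo3 had −3.19 and −4.18 log2 units, and Rnf43, a ligase that removes Frizzled receptors, −2.56 and −4.48. The tumour means of Rspo3, 0.228 CPM under VEH and 0.0977 CPM under HDM, lay near the floor.

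Of 9 tested beta-catenin target genes, 1 rose and 3 fell under VEH, and 1 rose and 6 fell under HDM. With 38.9% of all tested genes called under VEH and 51.9% under HDM, the VEH count of both directions is near the share over all genes. The shares called lower were 20.6% under VEH and 28.9% under HDM, and those called higher were 18.2% and 23%. Axin2, a feedback inhibitor and a common readout of the pathway, went from 18.9 ± 3.95 to 2.25 ± 0.826 CPM under VEH (SD, n = 3 each), a difference of −3.07 log2 units (edgeR quasi-likelihood F-test, adjusted p = 0.000979), and had −4.19 under HDM (adjusted p = 0.000153). Nkd1, another feedback inhibitor, fell, with −3.29 and −4.37 log2 units. Myc, which many pathways control, was the target that rose, by 2.95 ± 0.94 log2 units under VEH (edgeR quasi-likelihood F-test, adjusted p = 0.0307) and 4.23 ± 1 under HDM (adjusted p = 0.00558). Its VEH call was lost when any of 5 single libraries was left out.

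The 14 tested genes of the intracellular cascade gave 3 rises and 1 fall under VEH and 4 rises and 3 falls under HDM. All were small beside those of the antagonists, and their number did not exceed the 38.9% and 51.9% called over all tested genes. Axin1 rose by 0.63 and 0.83 log2 units and Apc, a part of the complex that degrades beta-catenin, fell, with −0.87 and −0.69. Of the 4 tested other extracellular antagonists, Apcdd1, a membrane-bound inhibitor, rose by 3.06 ± 0.63 log2 units under VEH and 4.67 ± 0.67 under HDM (edgeR quasi-likelihood F-test, adjusted p = 0.00444 and 0.000457). Trabd2b, also called Tiki2, a protease that inactivates Wnt ligands, fell, with −4.54 and −4.42 log2 units (adjusted p = 0.000957 and 0.000511). Leaving out each library in turn, 23 of the 33 genes called under VEH and 34 of the 44 called under HDM were called in all 12 fits.

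**Figure D4:**
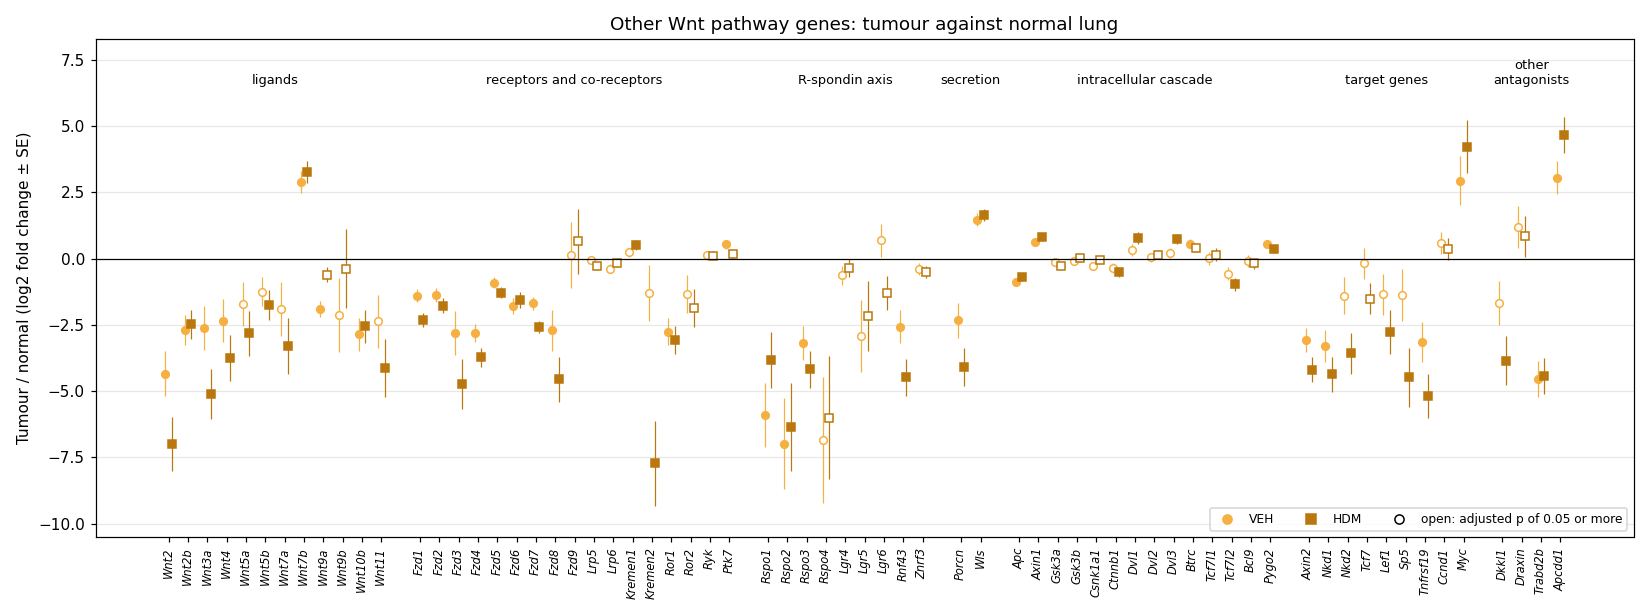
Points with SE bars give the log2 tumour-normal difference under VEH (circles) and HDM (squares) for the tested genes of each pathway list, filled where the adjusted p was below 0.05. Most called ligands, Frizzled receptors, R-spondin genes and target genes lie below 0, and Wnt7b, Wls, Apcdd1 and Myc lie above it.

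For each tested antagonist, the genes of most similar pattern were found by Pearson r of log2 CPM over the 12 libraries, which differ in tissue and depth. The search was among protein-coding genes with an average log2 CPM of at least 1. For Dkk2 they were Etv4 (r = 0.994), Mybl2 (r = 0.991) and Knstrn (r = 0.991). For Dkk3 they were Pdzrn3 (r = 0.993), Magee1 (r = 0.989) and Vstm4 (r = 0.987), and for Wif1 they were Cbr2 (r = 0.994), Dnajb13 (r = 0.994) and Gsta4 (r = 0.993). The nearest genes were less alike for the others, with Notum at most 0.986 (Stx11), Sfrp2 at most 0.976 (Adgrd1), Frzb at most 0.970 (Nol9), Sfrp1 at most 0.969 (Clip4) and Sfrp4 at most 0.889 (Zfp60). Among the antagonists themselves Dkk2 and Dkk3 ran opposite (r = −0.91), Dkk2 and Frzb ran together (r = 0.88), and Dkk3 ran with Wif1 (r = 0.91) and Notum (r = 0.91). Over the 6 normal libraries alone, Dkk2 and Sfrp2 had r = 0.72 and Wif1 and Sfrp2 had r = −0.70. The r of Dkk2 and Sfrp2 leans on normal VEH replicate 2. Dkk2 and Sfrp2 were at 6.71 and 8.04 log2 CPM there, against at most 3.16 and 5.19 in the other normal libraries. Whether Dkk2 and Sfrp2 ran together without that library was not tested. Other pairs had an r of larger size in normal lung, such as −0.95 for Sfrp2 and Sfrp4 and 0.8 for Dkk3 and Notum. These are descriptions over few libraries that differ mainly by tissue.

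**Figure D5:**
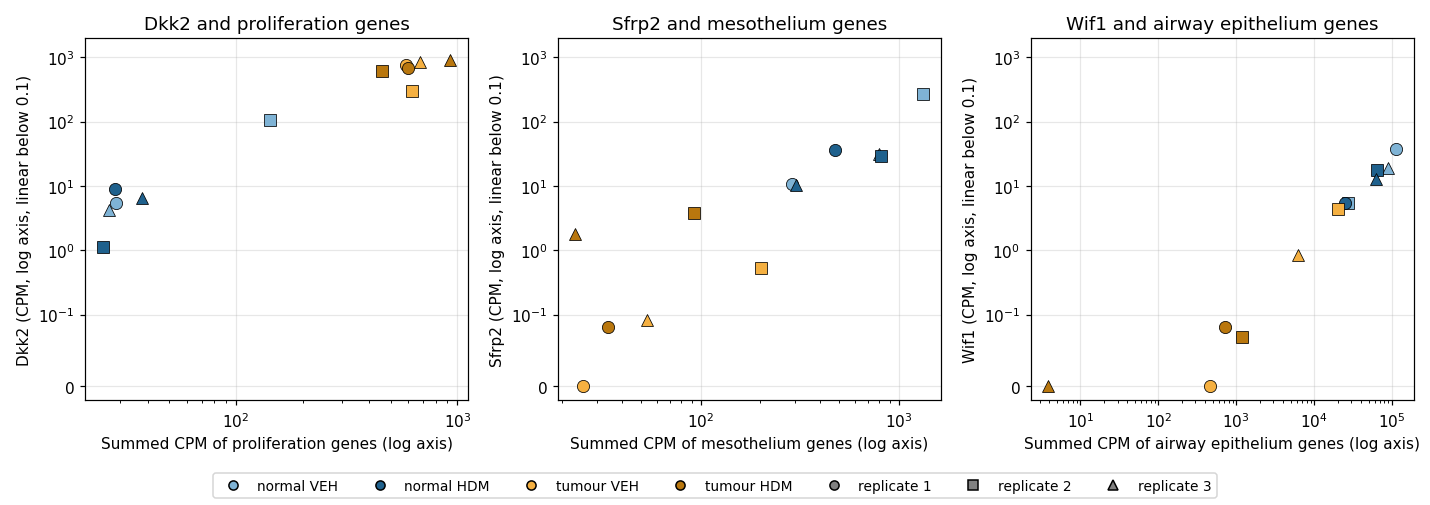
Each panel plots an antagonist against a marker sum per library, in CPM on log axes (the antagonist axis is linear below 0.1): Dkk2 against 5 proliferation genes, Sfrp2 against 7 mesothelial genes and Wif1 against 7 airway epithelial genes. Normal VEH replicate 2 is the normal library with the highest proliferation and mesothelial sums (142 and 1333 CPM), and tumour VEH replicate 2 is the tumour with the highest airway sum (20107 CPM).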

How the data were processed

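RNA was measured in 12 libraries, 3 in each of 4 groups set by the sample labels. The table deposited by the authors holds 1 column of raw counts for each library, by Ensembl identifier, and the gene lengths, per its headers. Per the submitters' processing notes, Trim Galore, STAR, featureCounts of Subread and the mm39 build were used; versions and the strand setting were not given in the sources used here. Libraries were stranded by dUTP, per the labels' protocols. Even values were in excess in the deposited counts, with 69.6% of values from 1 to 19 and 56.9% of values of 100 or more being even, so the counting limits printed here may be too narrow.

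Symbols and coordinates came from GENCODE M39 on GRCm39, in which 78168 of 78298 identifiers occur. Counts were fitted in R 4.3.3 with edgeR 4.0.16: filterByExpr (minimum count 10), TMM scaling, 1 coefficient per group over all 12 libraries, the robust quasi-likelihood F-test, two-sided, and Benjamini-Hochberg adjustment over the 22190 tested genes of each of 5 comparisons, called at an adjusted p below 0.05. CPM are scaled by TMM, and log2 CPM use a prior count of 2. The floor is 3 counts per library. The fit was tested on simulated data. Alternatives were DESeq2 size factors, library size only, no filter, the Wald test of DESeq2 1.42.0, blocks for replicate number or name prefix, removal of the 4 libraries of conflicting prefixes and of each library in turn.

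The 10 antagonists and all lists were chosen with earlier results of these data known. All 10 antagonists were described, any list gene could be named, and genes of similar pattern were the 3 with the highest r. Marker lists were mesothelium, fibroblast, smooth muscle and pericyte, cartilage, alveolar epithelium, airway epithelium, endothelium, immune cells, cardiac muscle, adipose tissue and proliferation.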

Additional observations from a re-analysis of the deposited data

How the results depend on the processing

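No result reversed its direction past the threshold under the alternatives. The count of genes called in tumours against normal lung under VEH was 8624, and 5603 without the 4 libraries of conflicting prefixes, where the pathway genes called went from 33 to 19. Leaving out each library gave 5733 (without tumour VEH replicate 1) to 9070 genes. Between HDM and VEH in normal lung, 0 genes were called by edgeR (1230 at an unadjusted p below 0.05) and 43 by the DESeq2 Wald test. In tumours, 21 genes were called, against 8 with library size only, 52 with no filter, 1311 by the Wald test, 0 with a block for the name prefix and 0 without the 4 libraries. Leaving out each library gave 0 to 24, with 7 without normal VEH replicate 1 and 0 without any of 9 others. The pathway genes called there went from 0 to 1 by the Wald test. In the interaction, 0 genes were called by edgeR (2084 at an unadjusted p below 0.05) and 222 by the Wald test, and leaving out each library gave 0 to 6, with 6 without tumour HDM replicate 3. With 2 settings chosen after seeing the data, the tumour count was 33 with counts halved and rounded and 1 without both VEH libraries numbered 2. The causes were not tested.

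With a replicate block the tumour count was 1. Libraries of the same number did not deviate together (18 pairs, correlations from −0.36 to 0.30, 8 over 0.1), and 5 of 12 libraries correlated best with their own number. Libraries of the same prefix gave 6 pairs with correlations from −0.22 to 0.18, and 1 of 12 correlated best with its own prefix. With so few libraries per group, these values cannot tell whether libraries of a number or prefix share an origin. Of the antagonists, 4 rather than 6 were past the threshold under VEH with the block. Scaling by library size only moved the median of all genes from −0.11 to 0.0261 log2 units under VEH and from −0.078 to 0.0984 under HDM, and the 2 higher and 4 lower antagonists were the same in number. Depth limits Dkk1, Sfrp4, Sfrp5, tumour Wif1, tumour Sfrp2 and normal Frzb, and among the pathway genes tumour Wnt2 and tumour Rspo3.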

Other observations

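Of the marker lists not described beside a gene, endothelial genes summed to 1627 to 3418 CPM in normal lung and 101 to 566 CPM in tumours, and smooth muscle and pericyte genes to 140.1 to 1908 and 42 to 146 CPM. Fibroblast genes summed to 862 to 3134 CPM in normal lung and 5443 to 13916 CPM in tumours. The mean log2 level of the fibroblast list overlapped, at 6 to 7.51 in normal lung and 6.91 to 7.73 in tumours, so the higher sums do not hold for the list as a whole. The 7 immune genes ranged from 78.2 to 591 CPM in normal lung and from 187 to 358 CPM in tumours. Cardiac muscle genes summed to 15.6 to 401 CPM in normal lung and 0.425 to 12.7 CPM in tumours, adipose genes to 6.00 to 78.1 and 3.87 to 22.6 CPM, and cartilage genes to 24.4 to 105 and 36 to 84.2 CPM.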
